A study of Homo sapiens with 6 samples.

Results

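Elastic fibre and microfibril genes were compared between LN229R cells with an edited and with an intact ATRX gene. The 10 genes were taken by symbol: the fibrillin genes FBN1 and FBN2, the microfibril-associated genes MFAP2, MFAP4 and MFAP5, the elastin gene ELN, and the fibulin genes FBLN1, FBLN2, FBLN5 and EFEMP1. Each had 1 transcript cluster, the probe group that an array of this kind summarises as 1 value, and together they made up 10 of the 33616 genes measured. LN229R is a derivative of the human GBM line LN229 that was made resistant to temozolomide (TMZ), although the sample labels name the line only as LN229. All cells carried CAS9 and had been selected with puromycin for 7 days before a second virus was added for 24 h. ATRX NC cells (3 arrays) received a non-targeting sgRNA with this virus and are labelled ATRX wild type, and ATRX KO cells (3 arrays) received sgRNAs against ATRX and are labelled ATRX knockout. Both groups were grown in medium with 10% serum, and no drug other than the puromycin of the selection is named in their labels. The sources used here do not say whether the KO cells were a pool or a clone, nor whether replicates were separate cultures. The p-values therefore describe the spread of these 6 arrays alone, and that spread may be technical.

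Elastic fibres give stretch to arteries, lung and skin. They consist of a core of crosslinked elastin laid onto microfibrils, which are long polymers of fibrillin. Microfibrils also occur without elastin, where they anchor cells and hold latent TGF-beta and BMPs in the matrix. Fibrillin-1 is the main fibrillin of adult tissue and is mutated in Marfan syndrome, whereas fibrillin-2 is made chiefly during development. The microfibril-associated glycoproteins and the fibulins bind fibrillin and elastin and guide their assembly.

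The fibrillin genes moved in opposite directions in ATRX KO cells, and their promoters are shown because the comparison turns on this pair. RefSeq promoter windows on GRCh38.p14 run from 250 bases before to 50 bases after an annotated start, and windows were found for 6 of the 10 genes. The FBN1 window lies at chr15:48644921-48645220 on the minus strand and the FBN2 window at chr5:128538196-128538495 on the minus strand. Capitals mark GC boxes (GGGCGG) and E-boxes (CANNTG), each searched on both strands.
FBN1: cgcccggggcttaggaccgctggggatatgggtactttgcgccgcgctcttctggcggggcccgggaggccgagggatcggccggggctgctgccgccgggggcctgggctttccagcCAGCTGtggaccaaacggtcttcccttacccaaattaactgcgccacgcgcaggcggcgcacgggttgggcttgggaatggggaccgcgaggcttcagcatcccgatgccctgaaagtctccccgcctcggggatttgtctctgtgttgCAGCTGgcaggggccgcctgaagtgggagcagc
FBN2: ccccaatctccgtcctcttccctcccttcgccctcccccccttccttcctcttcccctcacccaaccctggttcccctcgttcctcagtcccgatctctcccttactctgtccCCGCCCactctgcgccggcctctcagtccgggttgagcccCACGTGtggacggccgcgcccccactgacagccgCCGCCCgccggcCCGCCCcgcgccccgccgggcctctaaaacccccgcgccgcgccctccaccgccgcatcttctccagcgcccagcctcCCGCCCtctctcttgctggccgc

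The FBN1 window held 2 E-boxes, at -132 and 17 bases from the annotated start, and no GC box. The FBN2 window held 4 GC boxes, at -137, -63, -51 and 27, and 1 E-box at -97. Neither held a SMAD element (CAGAC), an AP-1 site (TGANTCA) or a TATA box (TATAAA), and only FBN2 held a CCAAT box. No matched letters of different motifs overlapped. Of 35116 promoter windows, 45.0% held a GC box, 68.7% an E-box, 45.3% the SMAD element, 7.71% the AP-1 site, 11.5% the TATA box and 34.6% the CCAAT box. The GC content was 68.3% for FBN1 and 72.7% for FBN2, against a median of 58.7% over these windows. A match describes the letters of the window and is not a measured binding site.

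The ATRX transcript was at log2 intensities of 10.49, 10.22 and 10.14 in ATRX NC and 8.47, 8.67 and 8.75 in ATRX KO, a log2 fold change of -1.65 (standard error 0.16, limma adjusted p = 0.000561), so every array followed its label. Array medians over the genes ranged from 6.03 to 6.17, and arrays correlated at a mean r of 0.991 within ATRX NC, 0.992 within ATRX KO and 0.981 between the groups, across genes, which are not independent replicates. Of 12 glioma cell markers, 9 were above the median level of all genes in each group, among them VIM, CD44 and SOX2, while GFAP and OLIG2 were below it. Of these 12 markers, 3 rose (ITGA3 by 2.85, EGFR by 0.94 and SOX9) and 2 fell (S100B at -2.93 and NES at -1.02), and the SOX9 call was lost in 6 of 16 alternatives, among them the loss of control replicates 2 (adjusted p = 0.105) or 3 (0.0886) or of knockout replicates 2 (0.0690) or 3 (0.0885). The table holds no detection call, so a dim gene has no measured floor. The median level of all genes, 6.10 on the log2 scale, was used to say which genes were dim. It also set a filter among the alternatives, the share of brighter genes called, and which uncalled pathway genes were named. The genes used to compare same-numbered arrays were chosen by it as well.

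FBN1 expression was raised in ATRX KO cells, while FBN2 expression was reduced. The FBN1 log2 intensity was 9.41, 9.38 and 9.44 on the ATRX NC arrays and 11.20, 11.14 and 11.50 on the ATRX KO arrays. Every ATRX KO array lay above every ATRX NC array, with a gap of 1.71 between the groups and a range of only 0.06 within ATRX NC. FBN1 thus rose by 1.87 on the log2 scale (limma, 3 arrays per group, standard error 0.15, adjusted p = 0.000230), or 3.67-fold (95% interval 2.87 to 4.69). In bulk RNA, more RNA per cell and more cells that express the gene cannot be told apart, for this and for each later result. FBN2 was at log2 intensities of 7.89, 7.59 and 7.90 in ATRX NC and 6.78, 6.65 and 7.01 in ATRX KO. The groups did not overlap, and the lowest ATRX NC array lay 0.58 above the highest ATRX KO array. With a log2 fold change of -0.98 (standard error 0.17, limma adjusted p = 0.00934), FBN2 fell to 50.6% of the ATRX NC level. Both fibrillin calls held under all 16 alternatives run for them, with log2 changes of 1.77 to 1.94 for FBN1 and -1.09 to -0.90 for FBN2.

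The fibrillin pair thus moved apart. Taken array by array, FBN1 minus FBN2 was higher in ATRX KO by 2.86 on the log2 scale (standard error 0.09), a 7.24-fold change of their ratio. This standard error comes from the spread of the array differences without the limma fit, unlike the 0.15 and 0.17 given for the genes. A label permutation gave p = 0.1, the smallest value possible with 3 arrays per group. FBN1 had the highest and FBN2 the lowest log2 fold change of the 10 members, so no other pair of members could differ more. The 7.24-fold value concerns the change of the ratio only, since intensities of different transcript clusters do not give the ratio itself. FBN3, the remaining fibrillin gene, named after its values were seen, was dim in both groups with a log2 difference of 0.22 (standard error 0.31, adjusted p = 0.734 from limma).

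**Figure D1:**
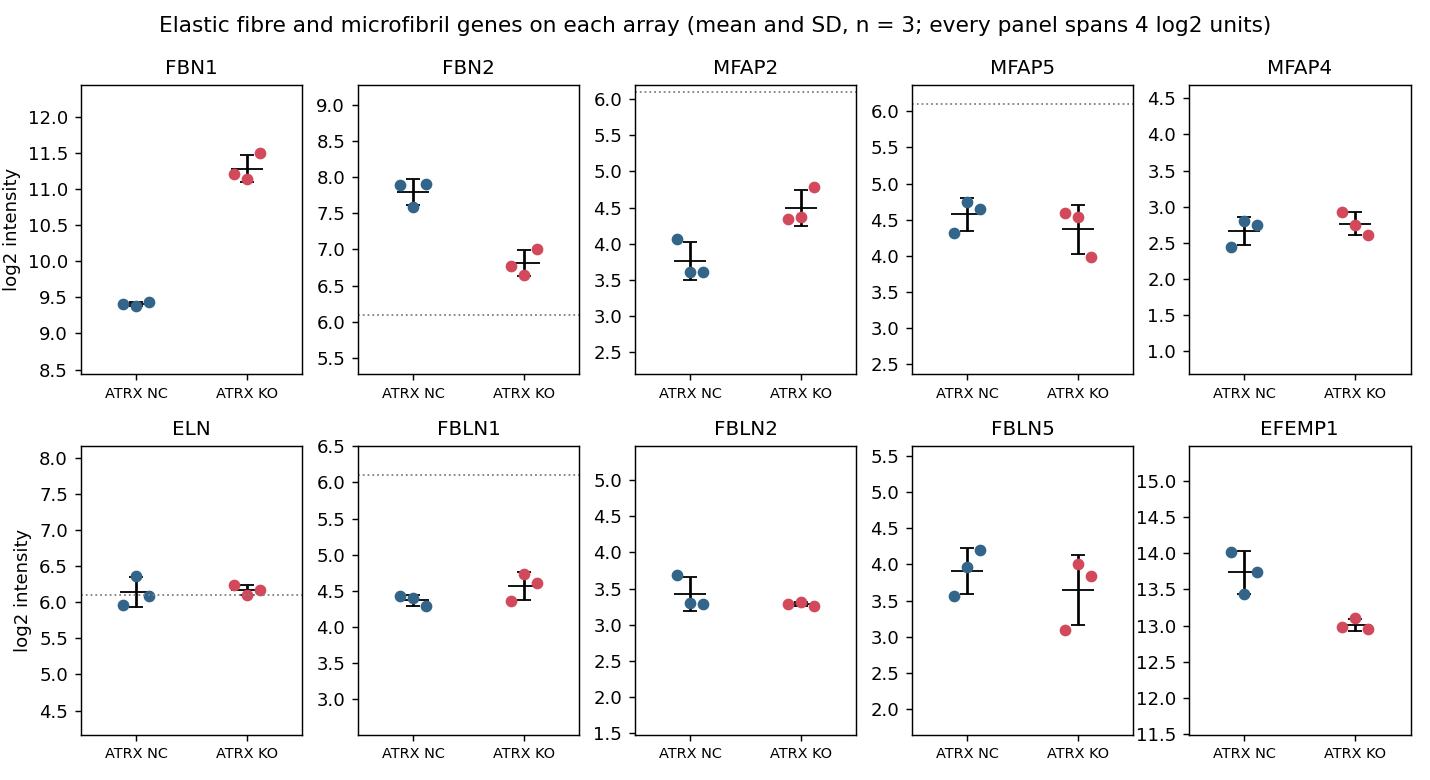
Log2 intensity (vertical axis) of each of the 10 genes on the 3 ATRX NC arrays (blue) and the 3 ATRX KO arrays (red), with the mean and SD of each group in black and the median level of all genes (6.10) as a dotted line where it falls in the panel. FBN1, FBN2, MFAP2 and EFEMP1 have groups that do not overlap, and the other 6 panels show overlapping groups.

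Markers of other cell types were examined because fibroblasts and smooth muscle cells also make fibrillin-1. Of 9 measured fibroblast markers, 5 rose and none fell, while 5.79% of all genes rose and 3.72% fell. Their summed log2 level lay between 12.2 and 12.3 in ATRX NC and between 15.3 and 15.8 in ATRX KO, so it was higher in the group where FBN1 was higher. This sum adds intensities of different probes and was made up mostly of LUM (mean 11.65 in ATRX NC and 15.17 in ATRX KO), followed in ATRX KO by FAP (13.06). Within ATRX KO the order differed, as replicate 3 had the highest FBN1 value (11.50) and the lowest LUM (14.94) and FAP (12.84) values. THY1 and PDPN were at 0.48 and 0.05 and did not pass. The fibroblast collagen genes COL1A1 and COL1A2 were at -0.31 and 0.68 and did not pass. COL1A2 did pass without ATRX KO replicate 2 (adjusted p = 0.0381) and among genes above the median level (0.0450). Over the alternatives COL1A1 ran from -0.44 to 0.57 without passing. The 0.57, and the lowest COL1A2 value of 0.06, came from averaging transcript clusters, so both genes depended on the cluster used. The markers that rose were FAP (5.19), LUM (3.52), DCN (2.28), PDGFRB (1.84) and S100A4 (1.51). Of 9 smooth muscle and pericyte markers, TAGLN rose and CSPG4 fell, while ACTA2, MYH11 and DES were at -0.09, 0.08 and -0.27 and did not pass. Their summed level lay between 10.3 and 10.4 in ATRX NC and between 10.4 and 10.9 in ATRX KO. Of 11 immune and endothelial markers 9 did not pass and the median was 0.16, and the rise of their summed level from 9.28 to 9.40 up to 10.6 to 10.9 was mostly that of CD68, a lysosomal glycoprotein (mean 6.62 to 10.05). PECAM1 was at 1.52, a call lost without ATRX KO replicate 1 (adjusted p = 0.0550) or 3 (0.0634). Of 8 epithelial markers KRT19 alone was called (0.74, adjusted p = 0.0316 from limma), with summed levels of 11.5 to 11.6 and 11.3 to 11.6. KRT19 was not called in 10 of 16 alternatives, among them the other scalings (adjusted p of 0.0515 to 0.0554), the replicate block (0.0651) and the loss of any array but ATRX KO replicate 1 (0.0673 to 0.0961). No marker can be read as absent, since the arrays give no floor. The part of these marker changes in the FBN1 result was not tested.

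Among the microfibril-associated genes, MFAP2 lay higher in ATRX KO but did not pass the test. MFAP2 encodes MAGP-1, a small glycoprotein that is bound along fibrillin microfibrils. Its log2 intensity was 4.07, 3.61 and 3.61 in ATRX NC and 4.34, 4.37 and 4.79 in ATRX KO. The groups were apart by 0.27, less than the range within either group (0.46 and 0.45). The log2 fold change was 0.74 (standard error 0.20, 95% interval 0.28 to 1.20, adjusted p = 0.0551 from limma). MFAP2 passed without ATRX NC replicate 1, its highest control array (0.89, adjusted p = 0.0431), and when protein-coding genes alone were tested (adjusted p = 0.0249). Both groups lay below the median level of all genes. MFAP5, which encodes the related MAGP-2, was at 4.32, 4.75 and 4.65 in ATRX NC and 4.59, 4.54 and 3.98 in ATRX KO. Its groups overlapped, with the lowest value on ATRX KO replicate 3, and the log2 difference was -0.20 (95% interval -0.69 to 0.28, adjusted p = 0.618 from limma). MFAP4 encodes a fibrinogen-related protein that binds elastin and fibrillin. It was at 2.44, 2.80 and 2.75 in ATRX NC and 2.93, 2.74 and 2.62 in ATRX KO with overlapping groups, and its log2 difference was 0.10 (95% interval -0.28 to 0.49, adjusted p = 0.771 from limma).

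The elastin gene ELN, which encodes the soluble precursor of the elastic core, showed overlapping groups. It was at 5.97, 6.36 and 6.09 in ATRX NC and 6.23, 6.11 and 6.16 in ATRX KO, and the ATRX KO arrays lay inside the range of the controls. The log2 difference was 0.03 (95% interval -0.34 to 0.39, adjusted p = 0.935 from limma), an interval that holds changes of up to 1.31-fold upward and 1.26-fold downward. Its sign turned under the other scalings of the arrays and on leaving out the first array of either group, down to -0.06.

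EFEMP1 expression was lower in ATRX KO cells, in a call that lay close to the threshold. It encodes fibulin-3, an extracellular matrix glycoprotein of the fibulin family that gliomas are known to secrete. Its log2 intensity was 14.02, 13.43 and 13.75 in ATRX NC and 12.98, 13.11 and 12.95 in ATRX KO. The groups were apart by 0.32, and the ATRX NC arrays spread over 0.59 against 0.15 in ATRX KO. With a log2 fold change of -0.72 (standard error 0.18, 95% interval -1.14 to -0.30, limma adjusted p = 0.0443), EFEMP1 fell to 60.6% of the ATRX NC level. This call was lost on leaving out control replicates 1 (adjusted p = 0.107) or 3 (0.111), or knockout replicates 1 (0.126), 2 (0.0863) or 3 (0.132), and was kept on leaving out control replicate 2 (0.0337). With the replicate block the adjusted p was 0.0903.

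**Figure D2:**
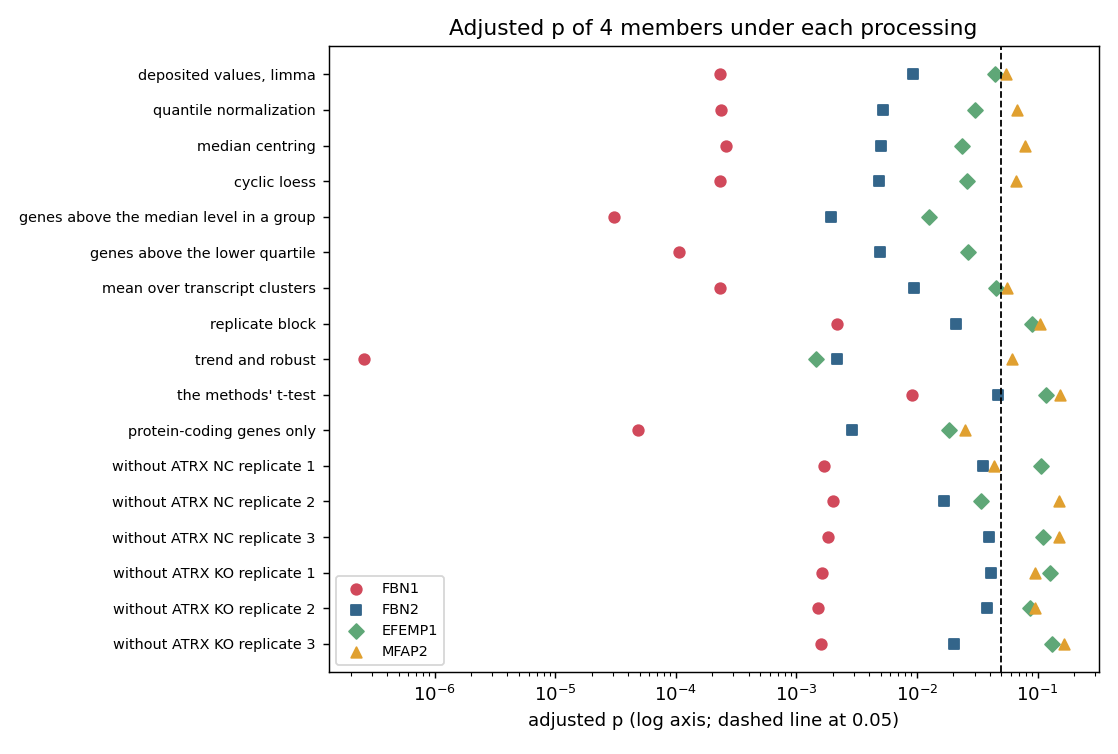
Adjusted p (horizontal log axis, dashed line at 0.05) of FBN1, FBN2, EFEMP1 and MFAP2 with the deposited values and under each other processing (vertical axis). FBN1 and FBN2 stay left of the line throughout, EFEMP1 crosses it in 7 settings and MFAP2 in 2. MFAP2 has no point in the settings that leave out dim genes.

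The fibulins 1, 2 and 5 were dim and did not pass. FBLN1 and FBLN2 encode fibulins of elastic fibres and basement membranes, and FBLN5 encodes a fibulin that carries elastin onto microfibrils and is needed for elastic fibres in mice. FBLN1 was at 4.43, 4.41 and 4.28 in ATRX NC and 4.36, 4.73 and 4.60 in ATRX KO, with a log2 difference of 0.19 (95% interval -0.17 to 0.55, adjusted p = 0.515 from limma). FBLN2 was at 3.69, 3.30 and 3.28 in ATRX NC and 3.29, 3.31 and 3.26 in ATRX KO, with a difference of -0.14 (95% interval -0.51 to 0.24, adjusted p = 0.675 from limma). In FBLN2 the first control array stood above the other 5 arrays, which lay within 0.05 of each other. FBLN5 was at 3.56, 3.97 and 4.20 in ATRX NC and 3.09, 4.01 and 3.85 in ATRX KO, with a difference of -0.26 (95% interval -0.88 to 0.36, adjusted p = 0.622 from limma). FBLN5 was the most variable of the 10 genes within groups, with a pooled SD of 0.41 that was larger than that of 87.2% of all genes.

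Of the 10 genes, 1 rose and 2 fell, and 7 did not pass. Over all genes tested, 5.79% rose and 3.72% fell, 9.51% together, and 16.6% of those whose higher group exceeded the median level were called. At an adjusted p under 0.05 and a change of at least 2-fold, FBN1 alone was called, against 4.11% of all genes. The groups did not overlap for 4 of the 10 genes, 2 higher and 2 lower in ATRX KO, whereas 19.0% of all genes lay higher without overlap and 11.2% lower, 30.2% together. The median log2 fold change of the 10 genes was -0.05, against 0.07 over all genes. The 3 called genes all lay above the median level of all genes.

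**Figure D3:**
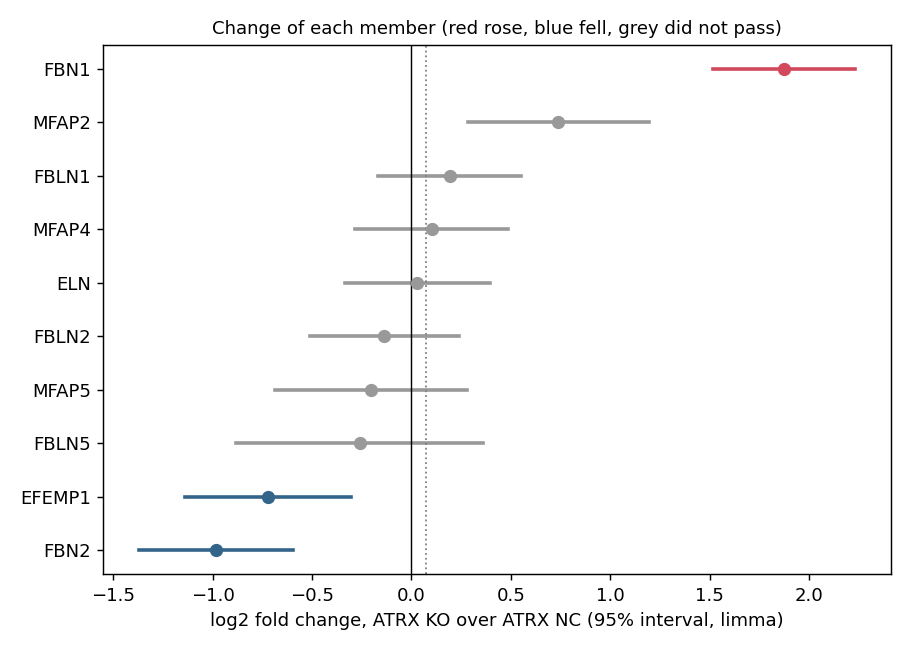
Log2 fold change of ATRX KO over ATRX NC (horizontal axis) for each of the 10 genes, with its 95% interval from limma, in red for the gene that rose, blue for those that fell and grey for those that did not pass. The dotted line is the median of all genes (0.07). FBN1 stands at 1.87, and FBN2 and EFEMP1 at -0.98 and -0.72.

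The genes next to the called members were listed from the RefSeq order of protein-coding genes. FBN1 lies between DUT (log2 fold change 0.16, adjusted p = 0.557 from limma) and CEP152 (-0.54, adjusted p = 0.106), which did not pass. FBN2 lies between SLC12A2, which encodes an ion cotransporter and fell by 0.68 (adjusted p = 0.0464), and SLC27A6 (-0.64, adjusted p = 0.101). The SLC12A2 call did not survive the loss of any single array, with adjusted p from 0.0621 (ATRX KO replicate 1 left out) to 0.148 (ATRX KO replicate 3 left out). EFEMP1 lies between PNPT1, which encodes a mitochondrial RNA-processing enzyme and fell by 0.73 (adjusted p = 0.0222), and CCDC85A (-0.43, adjusted p = 0.444). Of the runs without 1 array, PNPT1 stayed below the threshold only without ATRX NC replicate 1. Its adjusted p was 0.0699 or 0.0597 on leaving out control replicates 2 or 3. It was 0.0761, 0.0690 or 0.0669 on leaving out knockout replicates 1, 2 or 3. PNPT1 was called in 10 of 16 alternatives, and not with the replicate block (0.0611). These neighbours were chosen after the values of the members had been seen.

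Of 33 other measured genes of fibre assembly and crosslinking, 6 rose and 2 fell. The share called was 24.2%, against 9.51% of all genes and 16.6% of those whose higher group exceeded the median level. The median log2 fold change was 0.11, against 0.07 over all genes. FN1, which encodes fibronectin, the scaffold on which cells lay down fibrillin, rose by 1.77 (standard error 0.15), from 15.30 ± 0.19 to 17.07 ± 0.04 (SD, n = 3 each). BMP1, a metalloproteinase that processes procollagens and lysyl oxidase, rose by 1.73 (standard error 0.14), from 7.67 ± 0.11 to 9.41 ± 0.07. LTBP1, whose protein ties latent TGF-beta to fibrillin, rose by 1.32 (standard error 0.19) and LTBP2, a fibrillin-binding relative that does not bind latent TGF-beta, by 1.21 (standard error 0.19), a call that the methods' t-test, run gene by gene, did not make (adjusted p = 0.0571). HMCN1, which encodes the long fibulin relative hemicentin-1, had the largest fall of the list at -2.35 (standard error 0.14), from log2 intensities of 15.80, 15.64 and 15.64 to 13.39, 13.38 and 13.25. LOXL3, a crosslinking enzyme of the lysyl oxidase family, fell by 1.01 (standard error 0.19), a call lost without ATRX NC replicate 3 (adjusted p = 0.0555).

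The remaining rises in that list, named after their values were seen, were less stable. ADAMTS6, a metalloproteinase of the ADAMTS family, was at 1.40 and was not called on leaving out control replicate 3 (adjusted p = 0.0650) or knockout replicates 1 (0.0653) or 2 (0.0562). EFEMP2, whose product fibulin-4 brings lysyl oxidase to elastin, was at 1.11 (adjusted p = 0.0466 from limma). It was not called under any of the 3 other scalings (adjusted p of 0.0558 to 0.0630) nor without any 1 array but ATRX KO replicate 2 (0.0556 to 0.142). EMILIN1, LTBP4 and FURIN, a microfibril protein, a latent TGF-beta binding protein and the protease that trims fibrillin, were above the median level with log2 differences of 0.03, 0.04 and 0.11 (adjusted p = 0.942, 0.914 and 0.790 from limma). The crosslinking enzymes LOX and LOXL1 were dim and were at 0.36 and 0.60 (adjusted p = 0.460 and 0.484), also named after their values were seen. Without ATRX NC replicate 3 the list had 4 rises and 1 fall.

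Of 26 measured growth factor, SMAD and integrin genes tied to microfibrils, 7 rose and 4 fell. The share called was 42.3%, against 9.51% of all genes and 16.6% of those whose higher group exceeded the median level. The median log2 fold change was 0.21, against 0.07 over all genes. TGFB1 rose by 2.85 (standard error 0.16) and the inhibitory SMAD7 by 1.13 (standard error 0.15), the latter at 0.63 with the mean over its transcript clusters (adjusted p = 0.0688). BMP2, SMAD2 and SKI were at -0.03, -0.03 and 0.15 and did not pass. INHBA (-0.55, adjusted p = 0.0573 from limma), ITGAV (0.60, 0.0581) and BMP4 (0.72, 0.0618) lay near the threshold and were called in 7, 4 and 5 of 16 alternatives, as was VCAN of the assembly list in 7 (-0.48, 0.0851). Of the calls, SMAD3 (0.72, adjusted p = 0.0455 from limma) held in 5 of 16 alternatives and ITGB5 (-0.68, 0.0464) in 9. TGFBR3 (-0.87) was not called without ATRX NC replicate 3 (adjusted p = 0.0505) or ATRX KO replicate 3 (0.0570). These genes and the 4 before them were picked with their values in view. Under each of the 3 other scalings the growth factor, SMAD and integrin list had 6 rises and 5 falls. Integrin subunit genes moved in both directions. ITGA5 and ITGB1, which pair as the fibronectin receptor, rose by 2.44 (standard error 0.17) and 0.94 (standard error 0.14). ITGB3, whose product pairs with the alpha v subunit in a receptor for the RGD site of fibrillin-1, fell by 2.49 (standard error 0.16), and ITGA9, whose product pairs with beta 1, fell by 5.16 (standard error 0.16).

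Of 23 measured elastolytic enzymes and inhibitors, 10 rose and 2 fell. The share called was 52.2%, against 9.51% of all genes and 16.6% of those whose higher group exceeded the median level. The median log2 fold change was 0.50, against 0.07 over all genes. The enzymes that rose included cathepsin S (CTSS) at 2.65 (standard error 0.20), cathepsin B (CTSB) at 1.12 (standard error 0.15), MMP14 at 1.54 (standard error 0.22) and MMP9 at 1.10 (standard error 0.16). The methods' t-test did not call MMP14 (adjusted p = 0.0550). The metalloproteinase inhibitors TIMP1 and TIMP3 rose as well, by 0.98 (standard error 0.14) and 0.91 (standard error 0.14). The 2 falls were the cathepsin gene CTSV (-0.94, adjusted p = 0.0473 from limma) and the inhibitor gene A2M (-1.92, 0.0129). CTSV was called in 10 of 16 alternatives and A2M in 15. Among the other rises, SERPINA1 (1.27) was called in 5 of 15 alternatives and SERPINB1 (0.70) in 6 of 16. These 4 genes were named after their values were seen. MMP2, which cleaves elastin and fibrillin, was bright and stood at 0.19 (adjusted p = 0.439 from limma), and CTSK was at 0.50 (adjusted p = 0.220). The macrophage and neutrophil elastase genes MMP12 and ELANE, named after their values were seen, were dim and were at 0.19 and 0.28 (adjusted p = 0.801 and 0.489). Of 4 measured genes for elastin receptors and elastin-peptide binding, LGALS3, which encodes galectin-3, rose by 1.97 (standard error 0.24), while CTSA, NEU1 and CD36 did not pass (-0.01, 0.33 and 0.38).

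**Figure D4:**
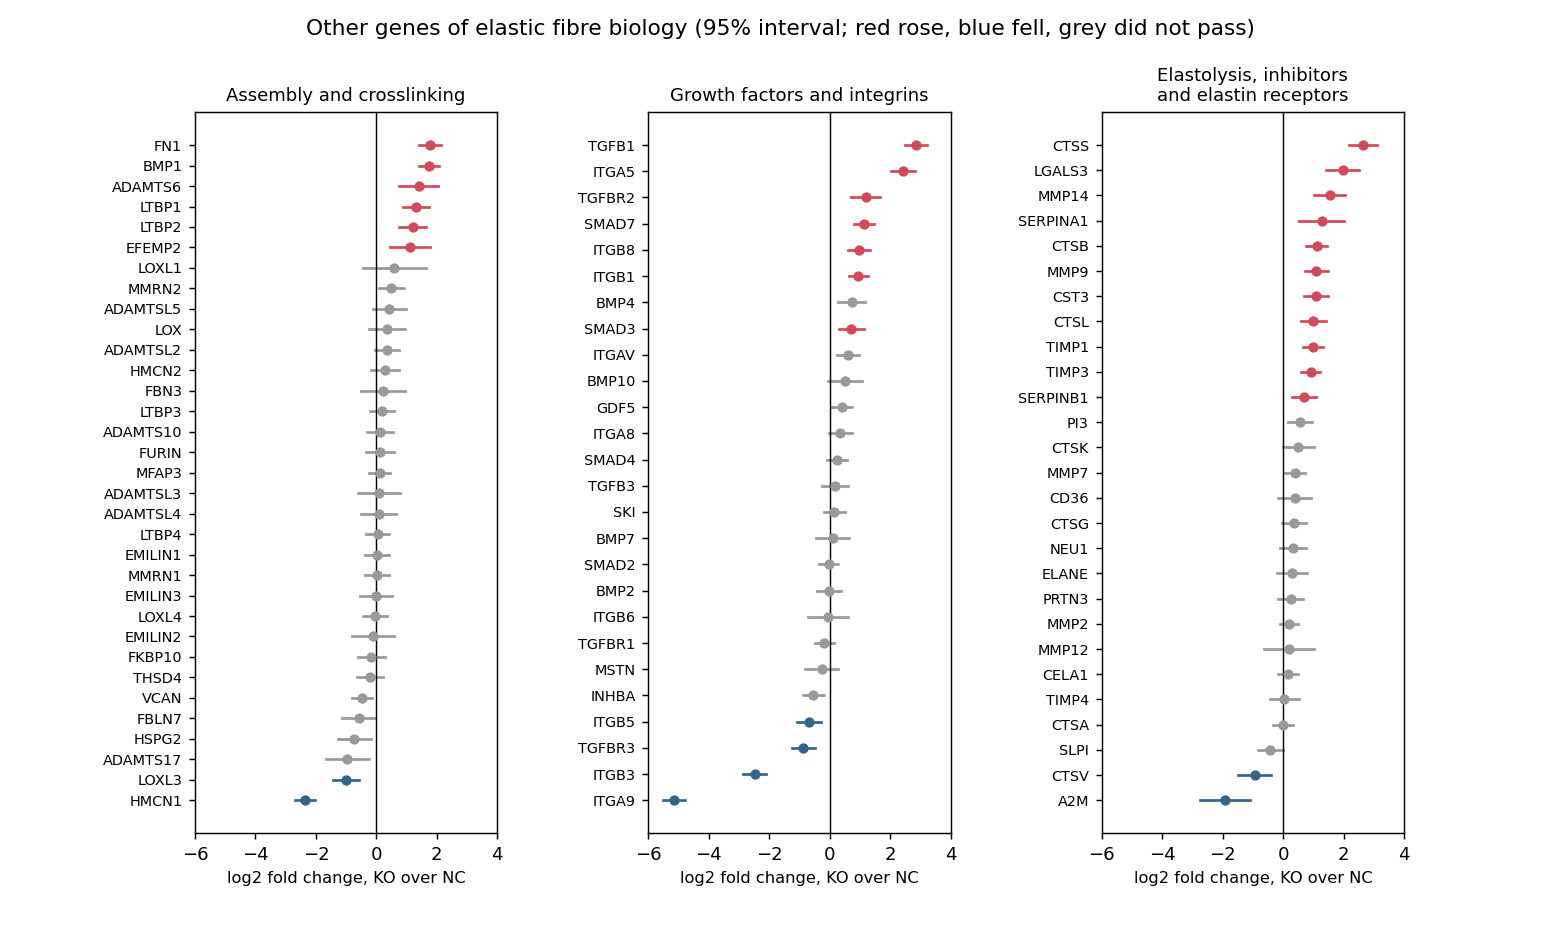
Log2 fold change of ATRX KO over ATRX NC (horizontal axis) with its 95% interval for each other gene of elastic fibre biology, in red where it rose, blue where it fell and grey where it did not pass. FN1, TGFB1 and CTSS lead the rises of the 3 panels, and HMCN1, ITGA9 and A2M have the largest falls.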

How the data were processed

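RNA of 3 ATRX NC and 3 ATRX KO samples was measured on arrays. The authors deposited log2 intensities, normalized between arrays with the limma quantile algorithm by their methods. Not given in the sources used here: background correction, probe summary and versions. Their methods name Agilent arrays, whereas identifiers and labelling kit are of an Affymetrix type. Of 135748 transcript clusters, 36176 had 1 gene symbol. Of these, 25516 were matched through Entrez numbers to RefSeq (GRCh38.p14) and took its symbol. The cluster with the highest mean was kept for each of 33616 genes, and all entered lmFit and eBayes of limma 3.58.1 (R 4.3.3) with Benjamini-Hochberg adjustment at 0.05. The robust fit used statmod 1.5.0. Arrays have no read depth, and their number limits the precision. Members and lists were chosen with earlier results of these data known. Named were ATRX, all members, and from each of 4 pathway lists up to 6 called genes with the smallest p and up to 3 uncalled ones with the largest p above the median level, which names flat genes rather than those near the threshold. LOXL2, TGFB2, TIMP2, GLB1, RPSA, COL3A1 and MCAM had no transcript cluster of their own among those used and were not analysed here.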

Additional observations from a re-analysis of the deposited data

How the results depend on the processing

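FBN1 and FBN2 kept direction and call under every alternative run: cyclic loess, quantile normalization and median centring, the filters that leave out dim genes, averaging of transcript clusters, the methods' t-test, a trended robust variance fit, the replicate block, protein-coding genes alone (added after seeing the data), and the loss of each array. The highest adjusted p was 0.00906 for FBN1 and 0.0469 for FBN2, both from the methods' t-test on the same values. EFEMP1 was called in 9 of 16 alternatives, and its methods' t-test gave an adjusted p of 0.118. MFAP2 was called in 2 of 14. None of the other 6 members was called in any alternative that kept it, with the lowest adjusted p at 0.393 for FBLN1. The called members numbered 2 to 3 when 1 array was left out, 2 with the replicate block (FBN1 and FBN2), 2 with the methods' t-test, and 1 when a change of at least 2-fold was also asked. Before adjustment, the methods' t-test had 4 members and 7425 genes at p under 0.05.

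Over all genes, 3198 were called. The count was 5085 over genes above the median level in a group, 5141 with the trend and robust fit, 2059 with the replicate block, 1995 with the methods' t-test after adjustment, 1380 with at least 2-fold, and 1776 to 2190 without 1 array. It moved by over 1.5 times without ATRX NC replicate 2 (2000), ATRX NC replicate 3 (1970), ATRX KO replicate 1 (1776), ATRX KO replicate 2 (2114) or ATRX KO replicate 3 (1801). The settings differ in the arrays used, the genes tested and the variance estimate, and the cause of these shifts was not tested. The other scalings moved the share of called genes that rose from 60.9% to 48.7% (quantile), 47.7% (median centring) and 49.2% (cyclic loess), and lowered the median log2 fold change by at most 0.09. Same-numbered arrays did not deviate together (r of -0.05, -0.07 and -0.02). With 3 arrays per group and no record of how replicates were made, this cannot show whether the samples were paired. Of the pathway lists, assembly and crosslinking had 4 calls and elastolysis 6 under the methods' t-test. No member had a second transcript cluster to try. Members not above the median level were not tested where dim genes were left out.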
